A study of Mus musculus with 6 samples.

Results

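The alpha and beta tubulin genes are described here in a mouse microglial cell line, BV2, which is immortalized. The CON group received no treatment, and the sTREM-1 group was exposed for 6 h to the recombinant protein, given at 1 μg/mL. Soluble TREM-1 is the free ectodomain of a receptor of myeloid cells. The study sequenced RNA of BV2 cells to clarify how sTREM-1 regulates the functions of microglia. Counts of 3 libraries per group, the number given in the labels, were analysed, while the paper's methods give n = 4 for RNA-seq. The members were chosen by symbol. The 10 rows of the deposited gene count table named Tuba1a, Tuba1b, Tuba1c, Tuba4a, Tubb2a, Tubb2b, Tubb3, Tubb4b, Tubb5 and Tubb6 were taken from 46095 rows in all, which gave 4 alpha and 6 beta tubulin genes. The labels describe wells of a six-well plate and name no separate cultures or batches, so p-values measure only the spread between these libraries. The libraries held 40070633 to 45877107 counts.

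Alpha and beta tubulin proteins pair into dimers, and the dimers stack into microtubules, the hollow filaments that carry organelles and phagosomes, set cell shape and build the mitotic spindle. Each protein is encoded by several genes called isotypes, whose proteins are closely alike and differ mostly in their C-terminal tails. Cells also adjust tubulin mRNA to the amount of free dimer, because excess dimer triggers decay of tubulin mRNA while it is being translated. Tubb3 is widely used as a marker of neurons, whereas Tuba1b, Tubb5 and Tubb4b are found in many dividing cells.

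The markers of the cell line were checked before the genes were compared. Of 10 microglia and macrophage markers, 9 had a mean of at least 1 CPM (counts scaled to the TMM-normalised library size), and their summed level was 2649 to 2677 CPM in the CON group and 2851 to 2996 CPM after sTREM-1. Most of this difference lay in Csf1r, which encodes the receptor for CSF-1 and had means of 521 and 753 CPM. Fcer1g fell from 384 to 348 CPM (edgeR adjusted p = 1.6e-05), and Cd68 and Tyrobp, with means of 605 and 300.4 CPM in the CON group and 589 and 293 CPM after sTREM-1, were not called. Ptprc and Trem2 rose, from 346 to 371 CPM and from 116 to 128 CPM (edgeR adjusted p = 0.0019 and 0.00098). Laptm5 set 1 library apart, with 74.1 CPM in sTREM-1 replicate 3 against 4.27 to 4.63 CPM in the other libraries. Without that library 5 tubulin genes were called, Tuba1b, Tuba1c, Tubb4b, Tubb5 and Tubb6, with log2 fold changes of 0.44, 0.26, 0.25, 0.33 and 0.17. Aif1, which encodes IBA-1, was at 0 counts in all libraries, although it is a defining marker of microglia. Whether reads of that gene were counted at all was not tested, so this 0 says little about the cells. Cx3cr1 had means of 0.945 and 1.77 CPM and was called higher (edgeR adjusted p = 0.016). None of 8 neuron markers reached 1 CPM, and Rbfox3, Nefm and Dcx were at 0. None of 6 astrocyte and 5 fibroblast markers reached 1 CPM, while 2 of 5 oligodendrocyte markers did, with Mog at 0. The summed oligodendrocyte markers lay at 7.19 to 7.86 CPM in the CON group and at 5.63 to 6.70 CPM after sTREM-1. Their part in the tubulin results was not tested.

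Tubulin mRNA rose after sTREM-1, and the rise was shared by alpha and beta isotypes. Of the 10 genes, 7 had enough counts to be tested, and all 7 tested genes were higher (quasi-likelihood test of edgeR, p adjusted by Benjamini-Hochberg, threshold 0.05). Among all 14120 tested genes, 16.5% were called higher and 30.5% in either direction, and among tested genes with a mean of at least 10 CPM, the range in which these 7 lie, 23.4% were higher and 42.0% changed in either direction. None of the 7 was called lower by edgeR, at an unadjusted p under 0.05 or by DESeq2, while 14.1% of all tested genes were called lower. The log2 fold changes ran from 0.16 for Tuba1a to 0.49 for Tuba1b with a median of 0.28, against a median of -0.0017 for all tested genes. In 5 of the 7 genes every sTREM-1 library lay above every CON library, which held for 21.3% of all tested genes and for 28.3% of those with at least 10 CPM. The genes were chosen with earlier results of these data known, so this count is a description. In bulk RNA, more cells of a kind and more RNA per cell cannot be told apart.

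**Figure D1:**
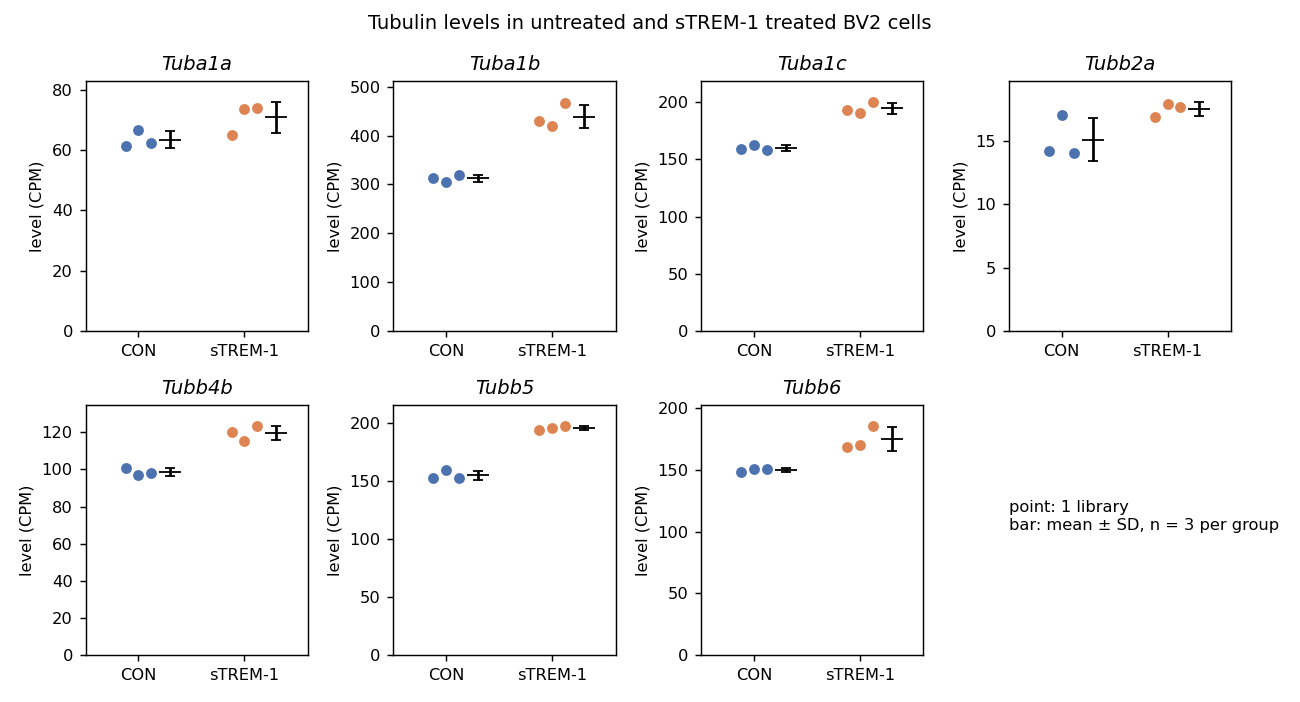
Level of the 7 tested tubulin genes in CPM (vertical axis, from 0) in 3 CON and 3 sTREM-1 libraries, where each point is 1 library and the bar is the mean ± SD (n = 3). The groups do not overlap for Tuba1b, Tuba1c, Tubb4b, Tubb5 and Tubb6, and overlap for Tuba1a and Tubb2a.

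Among the alpha tubulins, Tuba1b had both the highest level and the largest rise. This gene, on chromosome 15 of GRCm38 from 98931425 to 98934565, encodes the alpha isotype found in most cell types. It had 313, 305 and 319 CPM in the CON libraries and 431, 419 and 466 CPM in the sTREM-1 libraries. All 3 treated libraries were well above the untreated ones, and sTREM-1 replicate 3 was the highest. The level rose 1.40-fold (log2 fold change 0.49, standard error 0.03, edgeR adjusted p = 6.4e-14), and Tuba1b ranked 41 by p-value among all tested genes.

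Tuba1c lies on the same chromosome from 99029891 to 99038110, on the opposite strand. Its levels were 159, 163 and 158 CPM in the CON group and 193, 190 and 200 CPM after sTREM-1. The groups were apart by more than the spread of either, by 0.28 on the log2 scale (edgeR adjusted p = 3.5e-09, standard error 0.03). Tuba1a, the isotype known for its abundance in developing neurons, lies from 98949837 to 98953703, between Tuba1b and Tuba1c. Its levels were 61.3, 66.6 and 62.4 CPM in the CON group and 64.9, 73.8 and 73.8 CPM after sTREM-1. sTREM-1 replicate 1 fell below CON replicate 2, so the groups overlapped. The log2 fold change was 0.16 (standard error 0.05, edgeR adjusted p = 0.0080), and it did not pass the threshold without CON replicate 1 (adjusted p = 0.058), without sTREM-1 replicate 2 (adjusted p = 0.060) or without sTREM-1 replicate 3 (adjusted p = 0.067). Over all alternatives of this gene the adjusted p ran from 0.00046 to 0.067.

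Tuba4a, on chromosome 1, was close to the limit of detection. It had 0 counts in each CON library, and 9, 1 and 4 counts in the sTREM-1 libraries. A count of 0 allows up to 3 counts, or about 0.073 CPM, in a CON library, and the gene did not pass the filter on low counts.

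Among the beta tubulins Tubb5, Tubb4b, Tubb6 and Tubb2a were tested, and all of these rose. Tubb5, on chromosome 17 from 35833921 to 35838306, encodes the main beta isotype of many dividing cells. It had 153, 160 and 152 CPM in the CON group and 194, 196 and 197 CPM after sTREM-1, where the 3 libraries lay close together. The rise was 0.34 on the log2 scale (edgeR adjusted p = 8.2e-11, standard error 0.03), the largest among these 4 beta genes. Tubb4b, a widely expressed isotype on chromosome 2 from 25222160 to 25224702, had 101, 97.0 and 98.1 CPM in the CON group and 120, 116 and 123 CPM after sTREM-1. The groups did not overlap and the log2 fold change was 0.28 (standard error 0.03, edgeR adjusted p = 8.3e-08).

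Tubb6, a more divergent isotype on chromosome 18 from 67390717 to 67402749, had 148, 150 and 151 CPM in the CON group and 169, 170 and 186 CPM after sTREM-1. The untreated libraries were nearly alike, and the treated ones all lay higher, with sTREM-1 replicate 3 above the other two. The log2 fold change was 0.22 (standard error 0.03, edgeR adjusted p = 2.9e-06). Tubb2a, on chromosome 13 from 34074274 to 34078007, is best known from brain and was the least abundant of the 7 tested genes. It had 14.2, 17.0 and 14.0 CPM in the CON group and 16.9, 17.9 and 17.6 CPM after sTREM-1, and CON replicate 2 lay within the treated range. Its log2 fold change of 0.21 (standard error 0.08, edgeR adjusted p = 0.045) passed the threshold narrowly. DESeq2 gave an adjusted p of 0.059, and leaving out CON replicate 1, CON replicate 3 or sTREM-1 replicate 1, 2 or 3 gave adjusted p-values of 0.19, 0.21, 0.055, 0.12 and 0.091. Over all alternatives the adjusted p of this gene ran from 0.0070 to 0.21.

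Tubb2b and Tubb3 were nearly silent and were not tested. For Tubb2b the untreated libraries gave 3, 8 and 4 counts and the treated ones 2, 4 and 11. For Tubb3 they gave 1, 2 and 1 counts without and 7, 0 and 1 with sTREM-1. A difference in either was not detectable at this depth, and the untested genes together held at most 0.033% of the summed tubulin CPM of a library.

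**Figure D2:**
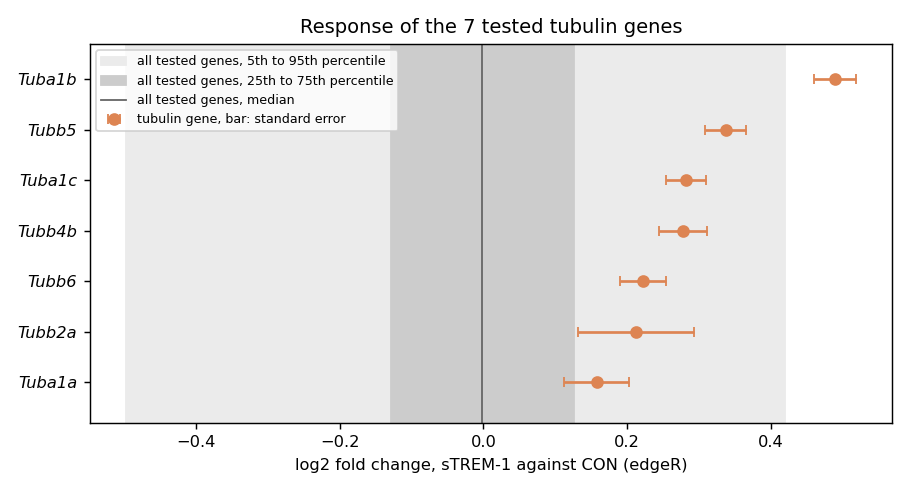
Log2 fold change between sTREM-1 and CON (horizontal axis) of the 7 tested tubulin genes, with standard errors as bars, over grey bands for the middle of all 14120 tested genes. All 7 points lie right of the band from the 25th to the 75th percentile, which ends at 0.13, and Tuba1b lies beyond the 95th percentile at 0.42.

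Tubulin coding sequences are so alike that reads can fit more than one gene, which bears on the values above. In the GENCODE M21 transcripts, the coding sequences of Tuba1a and Tuba1b were 98.3% identical, those of Tuba1b and Tuba1c 97.9%, and those of Tubb2a and Tubb2b 96.5%, the closest beta pair. Within the beta genes identity went down to 80.2%, and alpha and beta genes were 52.2% to 55.1% identical. Of all stretches of 100 bases in the longest coding transcript of each gene, 69.5% in Tuba1b, 65.1% in Tuba1a and 53.4% in Tuba1c also occurred in transcripts of other genes, in Tuba1a and Tuba1b mostly with Tuba1c and in Tuba1c mostly with Tuba1b. For Tubb2a the share was 36.9% and for Tubb4b 29.2%, the latter mainly with the pseudogene Tubb4b-ps1. No stretch of 100 bases in Tubb5, Tubb6, Tubb3 or Tuba4a occurred in another gene. The rises of Tubb5 and Tubb6 therefore rest on transcripts with no shared stretch of that length, while counts of Tuba1a, Tuba1b and Tuba1c depend on how the reads were divided and are uncertain as single values.

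**Figure D3:**
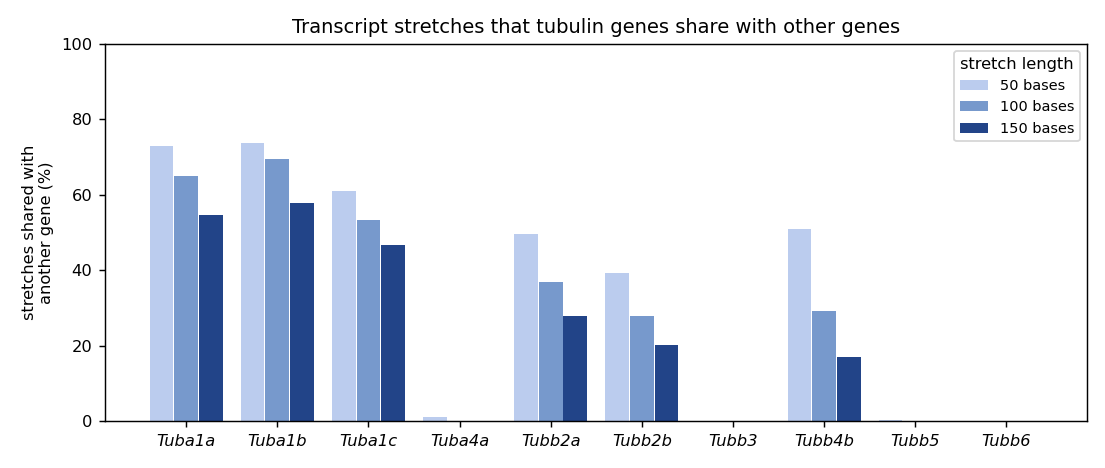
Share of stretches of 50, 100 or 150 bases in the longest coding transcript of each gene that also occur in a transcript of another gene (vertical axis, percent). Tuba1a, Tuba1b and Tuba1c share 53.4% to 69.5% of stretches of 100 bases, and Tubb5 and Tubb6 share 0%.

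The summed level does not depend on how reads were divided among the members. Reads lost because they fit several members would be missing from it, and such loss was not tested. Division with other genes that share stretches was not tested either. It was 949, 959 and 955 CPM in the CON libraries and 1188, 1183 and 1264 CPM in the sTREM-1 libraries. Every treated library was higher, and the mean went from 954 ± 5.07 to 1212 ± 45.5 CPM (SD, n = 3 each), which is 0.34 higher on the log2 scale. The alpha genes summed to 536 ± 3.57 CPM in the CON group and 704 ± 30.9 CPM after sTREM-1, and the beta genes to 418 ± 5.09 and 508 ± 14.5 CPM (SD, n = 3 each). These are fold changes of 1.31 and 1.21. The sums are given without a test, since the genes were chosen with results known.

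The balance of alpha to beta tubulin was also compared, with the same limit on lost reads. The log2 ratio of summed alpha to summed beta counts was 0.36, 0.33 and 0.38 in the CON libraries and 0.46, 0.45 and 0.50 after sTREM-1. All treated libraries had the higher ratio, and the means differed by 0.11 (p = 0.1 in a two-sided exact permutation test, which cannot go lower with 3 libraries per group, and 0.17 after Benjamini-Hochberg adjustment over 5 ratios). The log2 ratio of Tuba1b to Tuba1a went from 2.30 ± 0.09 to 2.63 ± 0.11, and that of Tuba1b to Tuba1c from 0.97 ± 0.05 to 1.17 ± 0.04 (SD, n = 3 each), without overlap of the groups and with the same exact p of 0.1 each. The ratio of Tubb5 to Tubb6 went from 0.05 ± 0.04 to 0.16 ± 0.07 and overlapped (SD, n = 3 each, exact permutation p = 0.2). The ratio of Tubb5 to Tubb4b went from 0.65 ± 0.06 to 0.71 ± 0.04 (SD, n = 3 each, exact permutation p = 0.3), and the groups overlapped. With these few libraries none of the 5 differences could reach an exact p under 0.05, whatever its size.

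Levels of different genes were compared per kilobase of the longest coding transcript. In the CON group the order of CPM per kilobase was Tuba1b with 179 ± 4.04, Tubb6 with 85.2 ± 0.818, Tuba1c with 80.7 ± 1.23, Tubb4b with 61.7 ± 1.21, Tubb5 with 58.4 ± 1.58, Tuba1a with 35.2 ± 1.54 and Tubb2a with 9.37 ± 1.04 (SD, n = 3 each). No neighbours in this order overlapped in the CON libraries. After sTREM-1 the order of the means was the same, but Tubb6 and Tuba1c overlapped, with 99.4 ± 5.49 and 98.1 ± 2.52, and so did Tubb4b and Tubb5, with 74.9 ± 2.45 and 73.8 ± 0.679 (SD, n = 3 each). With the union of all exons as the length, Tuba1c lay above Tubb6 in both groups, and Tubb4b and Tubb5 overlapped also in the CON group. The places of these neighbours thus depend on the length used. Reads of shared stretches may also have been split or lost, and the part of this in the order was not tested.

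Isotype shares were taken from the same values. Tuba1b made up 61.1%, 59.5% and 61.5% of alpha tubulin per kilobase in the CON libraries and 65.0%, 63.7% and 65.3% after sTREM-1. Its share was higher in every treated library, by 3.93 percentage points on average. Tuba1c went from 27.3% ± 0.547 to 25.2% ± 0.486 and Tuba1a from 11.9% ± 0.549 to 10.1% ± 0.693 (SD, n = 3 each), both lower in every treated library. Each of these 3 shares had an exact permutation p of 0.1, the smallest possible, and 0.25 after Benjamini-Hochberg adjustment over 10 shares. Since shares add up to a whole, these differences are not independent of each other. They also rest on genes that share most of their sequence, and the part of read division in them was not tested.

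Among the beta isotypes no share was separated between the groups. Tubb2a and Tubb4b share stretches with other genes, and the part of read division or loss in these shares was not tested. Tubb6 held the largest share per kilobase, 39.7% ± 0.462 in the CON group and 38.4% ± 0.913 after sTREM-1 (SD, n = 3 each, exact permutation p = 0.2). Tubb4b held 28.7% ± 0.774 and 28.9% ± 0.531 (exact permutation p = 1), and Tubb5 held 27.2% ± 0.470 and 28.5% ± 0.696 (exact permutation p = 0.2). Tubb2a held 4.36% ± 0.440 and 4.19% ± 0.166 (exact permutation p = 0.6), and Tubb2b and Tubb3 each held under 0.05% of beta tubulin in every library. By counts alone, with no length, Tubb5 held the largest beta share, 37.0% in the CON group and 38.5% after sTREM-1 and its transcript, of 2649 bases, is the longest of the tested beta genes.

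**Figure D4:**
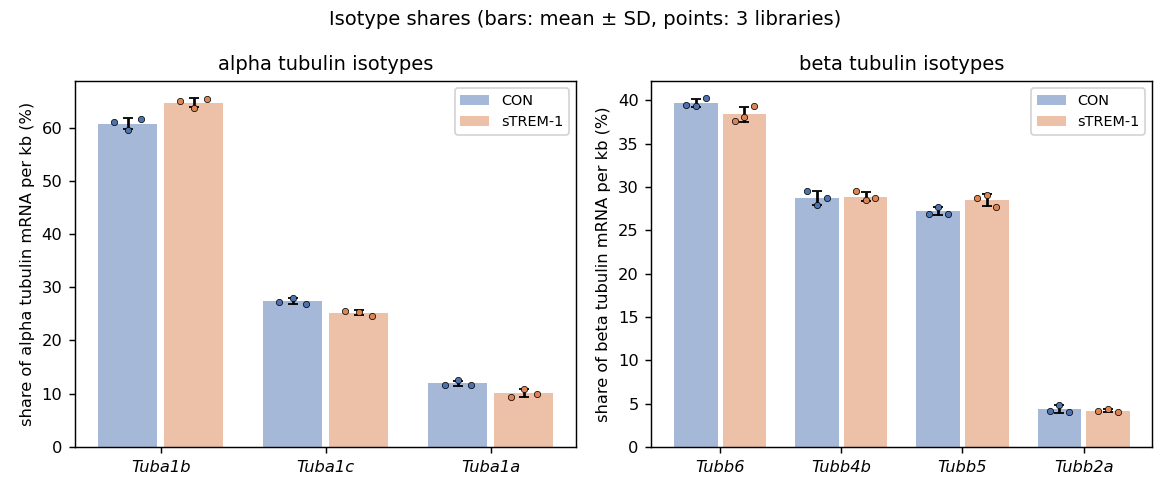
Share of each isotype in summed alpha or beta tubulin per kilobase (vertical axis, percent, from 0), as bars of the mean ± SD (n = 3) with 1 point per library. Tuba1b is at 60.7% of alpha tubulin in the CON group and 64.7% after sTREM-1, while the beta shares of the groups overlap.

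The promoters of members called higher are shown next, for the tested genes whose start differs by at most 5 bases between RefSeq and GENCODE. RefSeq (GRCm38.p6) promoter entries were found for 8 of the 10 genes. Each sequence below is the 250 bases before the start, 5′ to 3′ on the strand of the gene. Capitals mark the motifs searched, on both strands. These were CCAAT, the box bound by NF-Y, then GGGCGG, the GC box, and TATAAA and TATATAA, which are forms of the TATA box. The others were TGACGTCA, the cyclic AMP response element, and TTTGAA, a motif of cell cycle genes.

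Tuba1c (chr15:99029641-99029890, plus strand): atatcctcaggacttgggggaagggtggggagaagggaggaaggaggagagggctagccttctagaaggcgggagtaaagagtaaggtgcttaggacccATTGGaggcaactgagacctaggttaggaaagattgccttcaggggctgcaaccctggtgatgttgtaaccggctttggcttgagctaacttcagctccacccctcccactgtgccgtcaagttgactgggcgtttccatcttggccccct
Tubb2a (chr13:34078009-34078258, minus strand): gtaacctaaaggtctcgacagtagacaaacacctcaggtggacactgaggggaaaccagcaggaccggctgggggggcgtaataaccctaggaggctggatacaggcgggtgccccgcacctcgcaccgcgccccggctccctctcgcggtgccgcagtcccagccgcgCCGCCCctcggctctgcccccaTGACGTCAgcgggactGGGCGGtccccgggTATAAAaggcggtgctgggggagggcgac
Tubb4b (chr2:25224703-25224952, minus strand): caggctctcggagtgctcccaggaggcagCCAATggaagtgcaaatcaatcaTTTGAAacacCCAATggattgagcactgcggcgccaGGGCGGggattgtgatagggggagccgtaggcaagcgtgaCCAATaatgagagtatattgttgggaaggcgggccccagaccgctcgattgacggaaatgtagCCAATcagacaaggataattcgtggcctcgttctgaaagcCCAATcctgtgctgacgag
Tubb5 (chr17:35838302-35838551, minus strand): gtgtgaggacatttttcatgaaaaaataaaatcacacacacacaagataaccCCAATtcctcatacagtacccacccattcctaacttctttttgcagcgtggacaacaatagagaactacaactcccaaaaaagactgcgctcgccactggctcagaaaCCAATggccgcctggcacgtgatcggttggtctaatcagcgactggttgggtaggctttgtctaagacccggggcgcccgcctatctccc

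The promoters shown differed in these letters, and Tubb2a among them had passed the threshold only narrowly (edgeR adjusted p = 0.045). Tubb4b held CCAAT 5 times, Tubb5 2 times and Tuba1c once, while Tubb2a had none and held TATAAA 29 bases before the start and TGACGTCA 59 bases before it. CCAAT occurred in 5 of the 8 tubulin promoters and in 33.8% of all 32851 promoter windows, and GGGCGG in 6 of 8 and in 32.7% of all. TATAAA stood in 1 of 8 and in 12.4% of all, TATATAA in 1 of 8 and in 3.04%, TGACGTCA in 1 of 8 and in 1.55%, and TTTGAA in 1 of 8 and in 16.0%. The letters of one motif are not contained in another. Of the 4 windows shown, 3 held CCAAT and 2 GGGCGG. The windows of Tuba1a, Tuba1b, Tuba4a and Tubb3 were counted among the 8 but are not shown, since their starts in RefSeq and GENCODE differ by 202, 175, 571 and 129 bases. In the window of Tuba1b GGGCGG occurred 2 times and CCAAT was not found. A match is a description of the sequence and not a binding site.

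Other genes of the microtubule system were counted in lists written by hand from general knowledge. Of the 10 lists, 5 held calls in both directions, 3 only higher calls and 2 no call by edgeR. In all, 40 of the 123 tested genes were higher and 15 lower (edgeR adjusted p under 0.05), against 16.5% higher and 14.1% lower of all tested genes, and 23.4% and 18.7% of those with at least 10 CPM. Of the 40 higher genes, 18 were in the spindle list. Of the 6 remaining alpha and beta tubulin genes, only Tubb1 and Tubb4a could be tested, and neither was called by edgeR or had an unadjusted p under 0.05. DESeq2 did not call Tubb4a and gave no adjusted p for Tubb1. Tubb4a had 3.31 CPM in the CON group and 4.14 CPM after sTREM-1 (log2 fold change 0.32, edgeR adjusted p = 0.14), and it was called without CON replicate 1 (log2 fold change 0.50, adjusted p = 0.032), while without CON replicate 2 its log2 fold change was 0.23. Over its alternatives the adjusted p ran up to 0.38.

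Genes that nucleate microtubules or fold tubulin were counted next, and 30.5% of all tested genes were called in either direction. In the list of gamma, delta and epsilon tubulins and the gamma-tubulin complex, which nucleates microtubules, 3 of 11 tested genes rose and none fell by edgeR or DESeq2, with 1 lower at an unadjusted p under 0.05. Tubg1, the gamma tubulin itself, had 31.8 ± 0.466 CPM in the CON group and 39.2 ± 4.65 CPM after sTREM-1 (SD, n = 3 each) and rose by 0.30 on the log2 scale (edgeR adjusted p = 0.00025), and its complex partners Tubgcp2 and Tubgcp4 had log2 fold changes of 0.17 and 0.14. Of the 7 tested tubulin cofactors, which assemble the dimer, Tbcd and Tbcb rose, with log2 fold changes of 0.14 and 0.18, and Tbce and Tbca fell, with -0.16 and -0.12. For Tbca the groups overlapped, and DESeq2 called 1 cofactor lower where edgeR called 2. In this list 1 gene was called without CON replicate 1, and 2 genes without CON replicate 2. Of 13 tested genes of the CCT chaperonin and prefoldin, which fold new tubulin and actin chains, 3 rose and 3 fell. Cct3 had 393 ± 2.91 CPM without and 468 ± 7.65 CPM with sTREM-1 (SD, n = 3 each, log2 fold change 0.25, edgeR adjusted p = 4.6e-10) and Tcp1 by 0.08 on the log2 scale, while Cct4 and Pfdn4 had -0.13 and -0.23. For the 3 genes of tubulin mRNA autoregulation, Ttc5, which recognises nascent tubulin, and its partners Scaper and Cnot11, the log2 fold changes were 0.06, 0.10 and 0.01. None of them was called by edgeR, by DESeq2 or at an unadjusted p under 0.05.

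Enzymes that modify tubulin and proteins that stabilise or destabilise microtubules were counted in 3 lists. Of 16 tested tubulin modifying enzymes, 2 rose and 2 fell, while 16.5% of all tested genes were called higher and 14.1% lower. Ttl, the ligase that restores the terminal tyrosine of alpha tubulin, fell, with 28.3 ± 1.31 CPM in the CON group and 23.3 ± 1.36 CPM after sTREM-1 (SD, n = 3 each, log2 fold change -0.28, edgeR adjusted p = 0.00069). Ttll12 and Ttll5, which belong to the same enzyme family, rose by 0.23 and 0.27 on the log2 scale, and Agtpbp1, which removes glutamates from tubulin tails, had a log2 fold change of -0.09. Among 15 tested stabilising and end-binding proteins, Clip1, which binds growing ends, fell with a log2 fold change of -0.18, and Ckap5, a microtubule polymerase, rose with 0.10. Without sTREM-1 replicate 2, 4 genes of this list were called. Of 9 tested destabilising and severing proteins, 4 rose and none fell by edgeR or DESeq2, with 1 lower at an unadjusted p under 0.05. Stmn1, which binds free tubulin dimers, had 31.1 ± 2.43 CPM in the CON group and 41.8 ± 1.56 CPM after sTREM-1 (SD, n = 3 each), which is 0.43 higher on the log2 scale (edgeR adjusted p = 2.7e-07). Kif2c, a depolymerising kinesin, and Fignl1 had log2 fold changes of 0.34 and 0.18.

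Motor proteins were counted in separate lists for transport and for the spindle. Of 28 tested genes of dynein, dynactin and transport kinesins, which move cargo along microtubules, 7 rose and 7 fell, beside 16.5% and 14.1% of all tested genes, and the median of their log2 fold changes was -0.02. The dynein light chain gene Dynll1 rose by 0.22 and its paralog Dynll2 had -0.16, while Dync1li2 had -0.15 and the kinesin light chain gene Klc2 -0.26. Without CON replicate 2, 9 genes of this list were called. Of 19 tested spindle motors and spindle assembly genes, 18 rose and none was called lower by edgeR, by DESeq2 or at an unadjusted p under 0.05, with a median log2 fold change of 0.34. In 18 of the 19 every treated library lay above every untreated one, against 21.3% of all tested genes. Nusap1, a spindle microtubule binder, had 26.8 ± 2.31 CPM without and 39.7 ± 0.285 CPM with sTREM-1 (SD, n = 3 each), which is 0.57 higher on the log2 scale (edgeR adjusted p = 2.2e-09), and Kif20a, Hmmr and Tpx2 had 0.53, 0.44 and 0.28. Spindle genes mark dividing cells, and their median stood beside one of 0.28 for the tubulin genes. The part of cell division in the tubulin result was not tested.

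**Figure D5:**
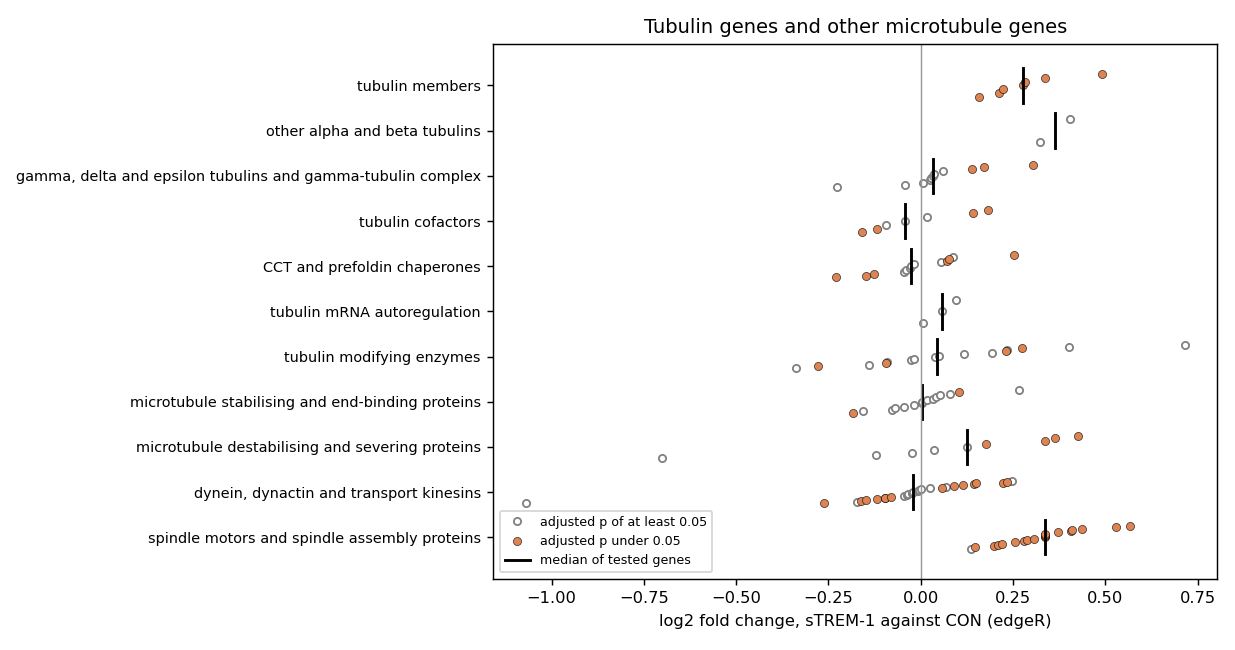
Log2 fold change between sTREM-1 and CON (horizontal axis) of each tested gene in the tubulin group and in 10 lists of microtubule genes, with filled points for an adjusted p under 0.05 and a black line at the median of each list. The tubulin genes (median 0.28) and the spindle genes (median 0.34) lie to the right of 0. So do the medians of the other alpha and beta tubulins, at 0.36 with 2 tested and 0 called, and of the destabilising list, at 0.13. The medians of the CCT and prefoldin, dynein and stabilising lists lie at -0.03, -0.02 and 0.00, and those of the remaining lists from -0.04 to 0.06.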

How the data were processed

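RNA of 3 CON and 3 sTREM-1 libraries of BV2 cells was analysed. The file deposited by the authors holds raw counts, as whole numbers, with 1 row for each gene symbol. According to the methods, reads were checked with FastQC, quantified with RSEM and compared with edgeR. The submitters' processing notes name HISAT2 2.0.4 and the builds hg19 and GRCh38, which are human, while the table holds mouse symbols. The annotation, the read length and the use of strand are not given in the sources used here, so reads of near-identical tubulin genes may have been split or lost. Depth was 40070633 to 45877107 counts per library, which limits genes of few counts. Counts of libraries of one group differed by more than sampling noise (chi-square per gene 3.45 to 4.99).

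Genes were filtered with filterByExpr (minimum count 10), which left 14120, scaled by TMM and tested without covariates in R 4.3.3, using the quasi-likelihood test of edgeR 4.0.16, with p adjusted over all tested genes by Benjamini-Hochberg (threshold 0.05). The biological coefficient of variation was 3.99%. Each standard error is the absolute log2 fold change divided by the root of its F value. CPM values use TMM-scaled library sizes. Single shares and ratios were compared with exact permutation tests. Coordinates and transcript lengths come from GENCODE M21 of GRCm38, and promoters from RefSeq. On simulated counts with 200 of 14120 genes changed 1.5-fold, 71.0% were recovered and 6.58% of calls were false. These rates hold for that setting only. In the data 30.5% of tested genes were called, and the tested tubulin genes changed from 1.12-fold to 1.40-fold.

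The members and lists were chosen with earlier results of these data known. Named are all 10 members, per microtubule list up to 4 called genes of smallest p with at least 5 CPM, and the 5 genes with at least 10 CPM whose log2 CPM profile lies nearest to summed tubulin and to Tuba1b. Tubb4a, Ttc5, Scaper and Cnot11 were named after their values were seen. Some genes of the lists are not reported here by name. Tried as alternatives were DESeq2 1.42.0, size factors by RLE, dropping the low-count filter or asking for 10 counts in every library, omission of each library, a replicate block, other lengths and denominators for shares, and a prior count of 2 for ratios.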

Additional observations from a re-analysis of the deposited data

How the results depend on the processing

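The number of tubulin genes called, 7, was 7 with RLE size factors and with at least 10 counts in every library, 8 without a filter on low counts, 6 with DESeq2, and 5 to 7 when each library was left out. The eighth gene without a filter was Tuba4a (edgeR adjusted p = 0.025, from 0 and 14 counts in the groups). Tuba1b, Tuba1c, Tubb4b, Tubb5 and Tubb6 stayed past the threshold in each of 11 alternatives, and Tuba1a and Tubb2a were lost in 3 and 6 of them, for a cause that was not tested. All 7 genes kept a positive sign throughout. The median log2 fold change ran from 0.25 to 0.29 without each library, and that of the summed level from 0.31 to 0.36. The differences between the groups in the shares of Tuba1a, Tuba1b, Tuba1c, Tubb5 and Tubb6 and in the 5 ratios kept their sign under every length, denominator, prior count and left-out library tried. When each library was left out, that of Tubb6 ran from -1.82 to -0.95 percentage points and the difference in the log2 ratio of Tubb5 to Tubb6 from 0.10 to 0.16. That of Tubb5 to Tubb4b, 0.06 with all libraries, was 0.03 without CON replicate 1 or without sTREM-1 replicate 2 and 0.09 without CON replicate 2, and the small differences in the shares of Tubb2a, Tubb2b, Tubb3 and Tubb4b changed sign. The shares themselves depend on the length: with no length the CON share of Tubb5 was 37.0% in place of 27.2% and that of Tubb4b 23.6% in place of 28.7%. With the replicate block, 7 tubulin genes and 57 genes of the other lists, against 55 without it, were called, as were 4613 genes in all against 4312. Deviations of same-numbered libraries correlated at -0.018, -0.033 and -0.014, and no library correlated best with its own number. No pairing by number was thus seen, but so few libraries cannot settle whether there was one. Depth limits Tuba4a, Tubb2b and Tubb3, which had at most 11 counts in any library.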

Other observations

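The genes whose profile over the 6 libraries lay nearest to that of summed tubulin were Eno1 and Pkm, which encode enzymes of glycolysis, Gm4735, Hcls1, a regulator of actin in blood cells, and Parp1, a DNA repair enzyme. They were ranked by the root mean square difference of mean-centred log2 CPM among 9047 genes with at least 10 CPM. That difference was 0.012 for Eno1, 0.013 for Gm4735, 0.015 for Hcls1, 0.015 for Pkm and 0.017 for Parp1. Eno1 had 500.4 ± 0.876 CPM without and 629 ± 19.6 CPM with sTREM-1 (SD, n = 3 each), which is 0.33 higher on the log2 scale. Nearest to Tuba1b were Uhrf1, which maintains DNA methylation, Acod1, which makes itaconate in macrophages, Cat, which encodes catalase, Srrt, a factor of RNA processing, and Gys1, a glycogen synthase, with differences of 0.013, 0.015, 0.029, 0.032 and 0.032. Acod1 had 484 ± 12.6 CPM without and 675 ± 26.1 CPM with sTREM-1 (SD, n = 3 each), which is 0.48 higher on the log2 scale. With a pair of groups, any gene of like fold change and small spread lies near, so closeness here describes the size of the change.

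Pseudogenes were read only as the 6 rows with a tubulin symbol, which together held at most 31 counts in a library, and counts of the other genes that share stretches with the tubulin genes were not analysed here. Tubb4b-ps1, which shares stretches with Tubb4b, gave 23, 8 and 14 counts in untreated and 13, 14 and 22 in treated libraries, while Tubb4b had 3980 to 5483 counts per library.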
